A study of Equus caballus with 12 samples.

Results

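All vitrified horse oocytes, VIM and VMAT pooled, were compared with fresh oocytes (FR) over the genes that every sample held at a normalized count of at least 10. A normalized count is the number of reads of a gene divided by the size factor of its sample. Of 11425 genes listed, 1110 (9.72%) met this rule in all 12 samples, and 893 of them could be given a symbol. The rule asked for a minimum level in both arms and did not use the difference between them. The comparison asks which differences vitrification left in mature oocytes whatever the stage at which they were vitrified.

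All oocytes came from slaughterhouse ovaries and were matured in vitro in medium with FSH and LH. They were denuded of cumulus cells, chosen for an extruded polar body, and frozen in pools for RNA extraction. VIM oocytes (VGV in the labels, 4 samples) were vitrified at the germinal vesicle stage within their corona radiata, in ethylene glycol, propylene glycol and trehalose, and matured after warming. VMAT oocytes (3 samples) were matured, denuded, vitrified at metaphase II in the same solutions, warmed and returned to culture. FR oocytes (5 samples) were matured and never vitrified. FR and VMAT oocytes were matured together, so vitrification, stage and maturation run cannot all be told apart. A sample is a pool, and nothing in the labels says that pools were independent of animal or day, so p-values measure the spread between these samples.

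Fully grown oocytes hardly transcribe. They live on messenger RNA stored during growth, whose poly(A) tails are lengthened or shortened as meiosis resumes, and maturation is the period in which much of it is translated or degraded. Vitrification turns cell and medium into a glass, and it is known for damage to the spindle, the actin cortex, mitochondria and calcium balance. Fewer molecules of a transcript and a shorter poly(A) tail that is captured less well cannot be told apart in libraries made from the 3′ end.

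The 1110 genes held 65.6% to 75.2% of each sample's reads, with mean normalized counts from 22.5 to 70386 and a median of 988. Just inside the threshold, WBP4 had a lowest normalized count of 10.022. Just 1 gene was at 10 or more in every vitrified sample and below 10 in every FR sample, and this was TOMM70, a receptor of the mitochondrial outer membrane. TOMM70 is therefore outside the 1110 genes, as are the stress granule protein G3BP2, RCAN3 and COMMD10, which reached a normalized count of 10 in 6, 6 and 4 samples. With limma, TOMM70 had a log2 fold change of 5.68 (standard error 1.61) and an adjusted p of 0.943. G3BP2 had 4.46 (standard error 1.79), RCAN3 4.39 (standard error 1.78) and COMMD10, which reached 10 in 4 of 5 FR and 0 of 7 vitrified samples, -5.69 (standard error 1.81), each again with an adjusted p of 0.943 in limma. The study reported all of these genes as differentially expressed. Its test was DESeq2, run for each vitrified stage on its own against fresh oocytes. The limma values here come from the pooled arms, so they are not a repeat of that test. DESeq2 values of these genes are not given here. The sign of the differences of these genes, and of all other differences, rests on the sample labels of the deposited columns. The files hold no marker that shows by itself which samples were vitrified, so the direction could not be checked independently. For these genes the signs are opposite to those of the study. The study gives G3BP2, TOMM70 and RCAN3 as lower and COMMD10 as higher in each vitrified group than in fresh oocytes. The reason was not tested, and the direction of every difference here is open to doubt.

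Oocyte genes were found in both arms, at levels that differed widely between genes. Of 15 oocyte markers, 12 had a row that could be named and 8 were among the 1110 genes, and the 12 summed to 4751 to 9718 RPM (reads scaled to equal totals) in vitrified and 6101 to 9181 RPM in FR samples. Among these 12 markers, the median normalized count over all samples ran from 88.9 for FIGLA to 7057 for DPPA3. The lowest values of FIGLA (0) and ZAR1 (3.11) were in vitrified samples. Those of OOSP2 (1.14) and ZP2 (9.15) were in FR samples. FIGLA, ZAR1, OOSP2 and ZP2 are not among the 1110 genes. Normalized counts of GDF9, a growth factor secreted by the oocyte, ran from 463 to 4413 in vitrified and from 1287 to 1918 in FR samples. Of 22 cumulus and granulosa cell markers, only HAS2, the hyaluronan synthase of the expanding cumulus, could be found by name, with normalized counts of 254 to 2144 in vitrified and 462 to 1239 in FR samples. PECAM1, an endothelial marker, was at 82.5 to 1450 in vitrified and 8.01 to 892 in FR samples. The remaining markers of cumulus, stroma, blood and mitochondrial transcripts had no named row and were not analysed here, so the part of other cells in any difference was not tested.

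Depth differed most within VMAT. The reads on genes numbered 1636620 in VMAT replicate 1 and 12166950 in VMAT replicate 2, the extremes of all 12 samples, and FR samples had 2740837 to 4715119. The authors' size factors ran from 0.321 to 7.98 and left the median normalized count of the 1110 genes at 1576 in VMAT replicate 1 and at 529 in VMAT replicate 2, whereas the other 10 samples lay between 794 and 1068. On this scale 417 of the 1110 genes had their highest value in VMAT replicate 1 and 0 had it in VMAT replicate 2, and with all samples scaled to equal totals these counts were 157 and 51. The fewest reads for any of these genes in any sample were 4. Equal totals moved the median log2 fold change of the 1110 genes from 0.03 to -0.07 and those of the 55 genes chosen for naming by -0.100 to -0.0860, which turned the sign of DPPA3, HMGB1 and SNRPB2. Fold changes below are on the authors' scale unless equal totals are named.

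**Figure D1:**
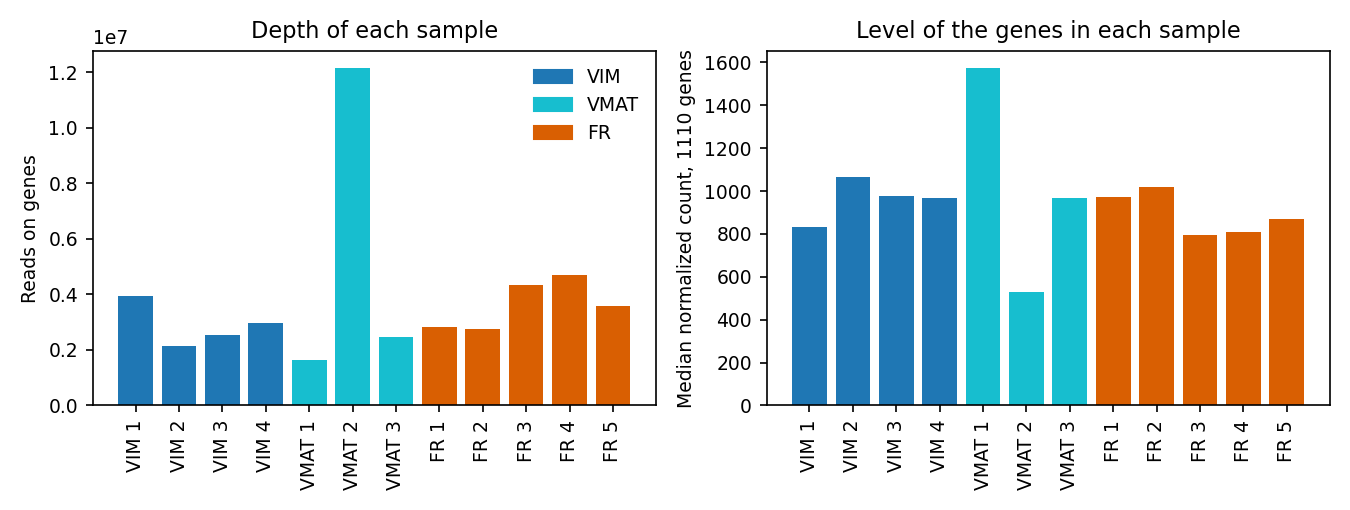
Reads on genes (left) and median normalized count of the 1110 genes (right) in each of the 12 samples, coloured by group. VMAT replicate 2 has the most reads, 12166950, and the lowest median, 529, and VMAT replicate 1 has the fewest reads, 1636620, and the highest median, 1576.

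No sample measure separated vitrified from FR samples. Genes detected numbered 6709 ± 1306 (SD, n = 7) in vitrified and 6958 ± 666 (SD, n = 5) in FR samples (exact two-sided permutation test over all 792 splits, p = 0.725, 0.985 adjusted over 5 measures). The share of reads on the 1110 genes was 70.9% in both arms (exact permutation p = 0.985). Over all genes tested, the mean distance between samples of different arms exceeded that within arms by 0.00174 (exact permutation p = 0.452), where distance is 1 minus Pearson's r of log2 values. Across the 1110 genes, which are not independent replicates, r was 0.422 to 0.694 among vitrified samples, 0.441 to 0.646 among FR samples and 0.441 to 0.754 between the arms, so a vitrified sample was about as close to an FR sample as to another vitrified sample.

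The pooled comparison by limma called none of the 1110 genes. With limma, all 1110 could be tested among 7594 genes, and 0 of either was called, that is, reached an adjusted p of 0.05 or less and a log2 fold change of 1 or more in size (background of all genes tested, 0%). The smallest adjusted p was 0.835 among the 1110 genes and 0.816 among all genes tested. Before adjustment, limma put 25 of the 1110 genes (2.25%) under a p of 0.05, against a background of 3.63% of all genes tested. Of the 25, 17 had a positive and 8 a negative log2 fold change, where all genes tested gave 1.44% positive and 2.2% negative. With equal totals 35 of the 1110 genes were under 0.05 (background 3.56%), among them all of these 25. edgeR on whole reads called 0 genes of 7594, with 14 of the 1110 genes at an unadjusted p under 0.05 (background 17.3%), and DESeq2 called 576 of all genes tested (7.58%) and 3 of the 1110, with 14 of the 1110 (background 13%) under 0.05 before adjustment.

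The fold changes were centred near 0, a centre that depends on how the samples are scaled. The median log2 fold change of vitrified over FR was 0.03 over the 1110 genes and -0.02 over all genes tested, with 577 genes above 0 and 533 below. The central 90% of the 1110 genes lay between -1.27 and 1.31, and 200 (18.02%) differed by 1 or more on the log2 scale, against 49.4% of all genes tested. The minimum in every sample keeps genes at or near 0 in some samples out of the 1110, so these shares are not of like genes. That no gene passed does not show that the arms were alike: the 95% interval of the difference reached a median of 1.71 to either side on the log2 scale. For 45 of the 1110 genes the interval lay wholly between -1 and 1, and all 45 were among the 278 genes with the highest means. In limma each gene's variance is drawn towards that of genes with a similar mean (35.4 prior against 10 residual degrees of freedom). The width of an interval is therefore in large part set by the level of the gene.

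**Figure D2:**
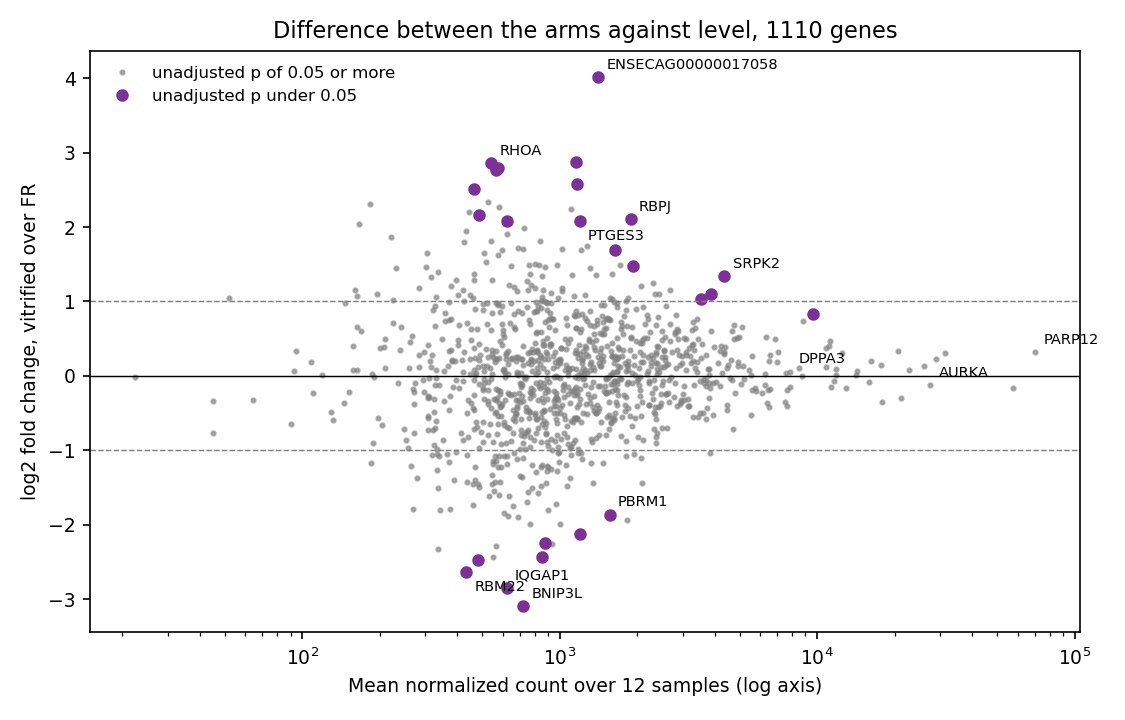
Log2 fold change of vitrified over FR samples (limma, log2 of the normalized count plus 1) against the mean normalized count on a log axis, 1 point per gene, with dashed lines at -1 and 1. The 25 genes at an unadjusted p under 0.05 (larger points) lie at both edges of a cloud that narrows as the mean rises, and 0 of them passed the adjusted threshold.

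The difference with the smallest p was that of ENSECAG00000017058, a gene for which no symbol was found. Its normalized counts were lowest at 529, in the middle at 2109 and highest at 3950 in the 7 vitrified samples, and in FR samples they were 65.8, 26.3, 701, 853 and 11.5. Of the FR samples, 3 lay far below every vitrified sample and 2 lay within their range, so the arms overlapped. The log2 fold change was 4.01 (standard error 0.9996, adjusted p = 0.835 in limma). The gene was chosen for its p among the 1110, as others named here were for their p, size or gap, so only p-values adjusted over all genes tested are given for them. The stage values were 4.21 (VIM vs. FR) and 3.76 (VMAT vs. FR), which share the FR samples.

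Arms that did not overlap were found for 2 of the 1110 genes, both with every vitrified sample above every FR sample, against a background of 0.119% of all genes tested in that direction (9 genes), 0.0658% in the other (5 genes) and 0.184% in either. Neither has a symbol. ENSECAG00000012404 had normalized counts of 362 to 2163 with a median of 691 in vitrified samples, and of 11.9, 75.5, 334, 290 and 132 in FR samples. ENSECAG00000008550 had 241 to 1182 with a median of 776 in vitrified samples, and 57.1, 182, 233, 139 and 159 in FR samples. In both, the gap was narrow: the highest FR sample was at 334 against 362 for the former and at 233 against 241 for the latter. Their log2 fold changes were 2.80 (standard error 1.05) and 2.17 (standard error 0.9987), each with an adjusted p of 0.943 in limma. The separation also held with equal totals. No gene of the 1110 had every vitrified sample below every FR sample.

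RBPJ, the DNA-binding protein through which Notch receptors act on their targets, had normalized counts of 722 to 5359 with a median of 2460 in vitrified samples. The FR values were 484, 1510, 59.3, 781 and 1074. All VIM samples (2211 to 5359) stood above all FR samples, and 2 of the 3 VMAT samples lay within the FR range. The log2 fold change was 2.11 (standard error 0.74, adjusted p = 0.943 in limma).

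PTGES3 encodes p23, a co-chaperone of HSP90. Its normalized counts were 470 to 3469 with a median of 1559 in vitrified samples, and 800, 181, 548, 187 and 343 in FR samples. VMAT replicate 1, at 470, was the only vitrified sample below the highest FR sample. Its log2 fold change of 2.08 (standard error 0.78) had, in limma, an adjusted p of 0.943.

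SRPK2, a kinase of splicing factors, was more abundant, at 3058 to 10462 with a median of 5591 in vitrified samples and at 1344, 508, 4573, 3038 and 3701 in FR samples. Its log2 fold change was 1.34 (standard error 0.50, adjusted p = 0.943 in limma), with 4 of 7 vitrified samples above every FR sample. RHOA, the small GTPase that controls actin contractility, had the highest log2 fold change of the genes with a symbol, at 2.86 (standard error 1.25, adjusted p = 0.943 in limma). It ran from 43.6 (VMAT replicate 1) to 1667 in vitrified samples and was at 19.4, 11.4, 612, 438 and 22.2 in FR samples, so that FR samples fell into a low and a high set and both arms shared the range from 43.6 to 612. CUL1, the scaffold of SCF ubiquitin ligases, had 184 to 2094 in vitrified samples and 391, 251, 16.2, 143 and 533 in FR samples, with a log2 fold change of 2.08 (standard error 1.02). UPF3B, a factor of nonsense-mediated decay, had 683 to 6485 in vitrified samples and 153, 1452, 237, 643 and 1416 in FR samples, with a log2 fold change of 1.69 (standard error 0.74). The arms overlapped for RBPJ, PTGES3, SRPK2, RHOA, CUL1 and UPF3B.

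The other genes without a symbol among the 8 smallest p with a positive value were ENSECAG00000000406 (log2 fold change 2.87), ENSECAG00000018423 (2.58) and ENSECAG00000022422 (0.84). ENSECAG00000022422 was abundant, at 4463 to 16770 with a median of 12818 in vitrified and 7747, 4788, 5826, 8262 and 5312 in FR samples. VMAT replicate 2, at 4463, was its only vitrified sample within or below the FR range.

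Among the 8 genes with a negative value, BNIP3L had the smallest p. BNIP3L is a mitophagy receptor of the BCL2 family, which marks mitochondria for removal. Its normalized counts were 1523, 1498, 433, 1362 and 1998 in FR samples, and ran from 19.3 to 635 with a median of 92.9 in vitrified samples. FR replicate 3, at 433, was the only FR sample within the vitrified range, and VIM replicate 1 (635) and VMAT replicate 2 (575) were the 2 vitrified samples above it. The log2 fold change was -3.09 (standard error 1.05, adjusted p = 0.943 in limma), the lowest of the 1110 genes. The stage values were -3.59 (VIM vs. FR) and -2.43 (VMAT vs. FR).

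IQGAP1, a scaffold that links actin filaments to small GTPases, was at 2379, 526.2, 1402, 936 and 289 in FR samples and at 16.6 to 664 with a median of 189 in vitrified samples. Its log2 fold change was -2.85 (standard error 1.17). RNF126, a ubiquitin ligase of misfolded proteins, was at 1213, 897, 2267, 1228 and 1000 in FR samples and at 38.9 to 1553 with a median of 376 in vitrified samples. For RNF126, 5 of 7 vitrified samples lay below every FR sample and 2 lay among them, which gave a log2 fold change of -2.43 (standard error 1.001). PBRM1, a subunit of a SWI/SNF chromatin remodelling complex, had 1707, 2991, 2817, 1103 and 3013 in FR and 25.9 to 1815 in vitrified samples, with a log2 fold change of -1.87 (standard error 0.83).

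RBM22, a splicing factor, had a log2 fold change of -2.64 (standard error 1.27), with 15.6 to 599 in vitrified and 63.6, 936, 1537, 963 and 450 in FR samples. RHBDF2, a regulator of the ADAM17 protease, had -2.48 (standard error 1.14), with 17.2 to 571 in vitrified and 341 to 1424 in FR samples. CCDC178 had -2.24 (standard error 0.99) and ENTR1, an endosomal protein that also acts in cell division, had -2.13 (standard error 0.92). The adjusted p was 0.943 in limma for IQGAP1, RNF126, PBRM1, RBM22, RHBDF2, CCDC178 and ENTR1 alike. Of the 8 genes, RHBDF2 had the widest distance between its stage values, -3.66 (VIM vs. FR) and -0.91 (VMAT vs. FR), and that difference did not pass either (adjusted p = 0.9998 in limma).

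**Figure D3:**
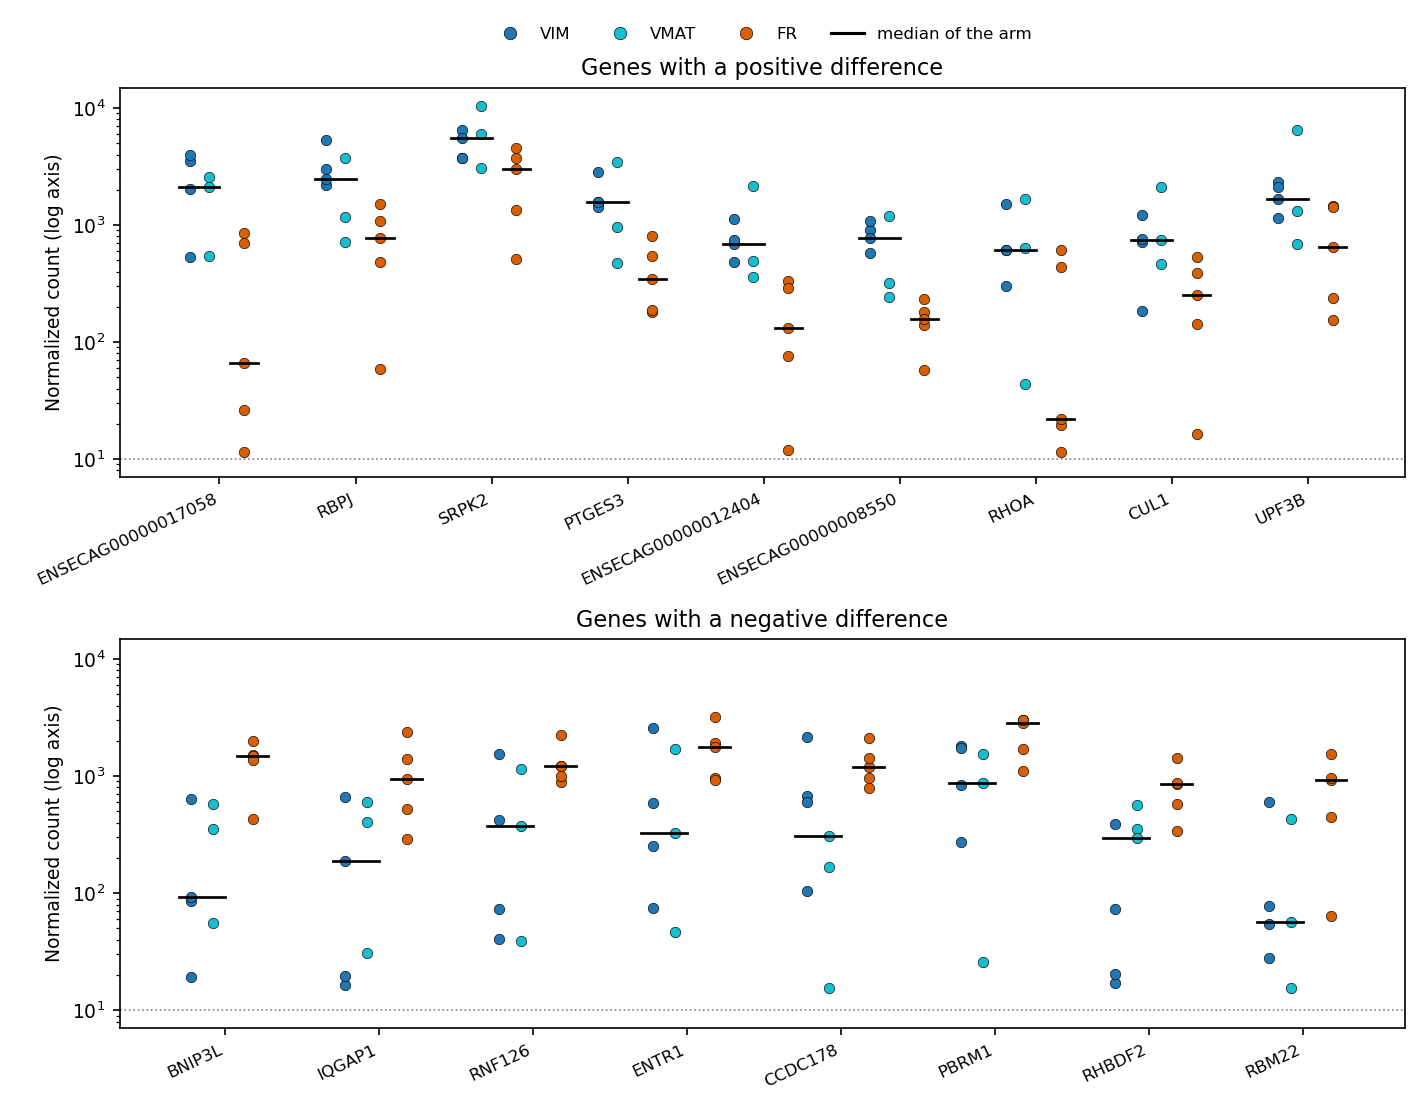
Normalized count on a log axis in each sample for genes with a small unadjusted p, 1 point per sample, with VIM and VMAT to the left of FR and black bars at the median of each arm (dotted line, the minimum of 10). ENSECAG00000012404 and ENSECAG00000008550 are the 2 genes whose arms do not overlap, and BNIP3L has 4 of 5 FR samples above every vitrified sample.

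DESeq2 on whole reads called 3 of the 1110 genes, all with a positive value. ENSECAG00000008550, described above, had a log2 fold change of 2.24 and an adjusted p of 0.0211 in DESeq2 and an adjusted p of 0.358 in edgeR. SIAH2, a ubiquitin ligase of the hypoxia response, was at 480, 805 and 483 in 3 VIM samples and at 13.7 in the other, at 12.97 to 53.2 in VMAT and at 10.8 to 53.7 in FR samples. Its adjusted p was 0.0358 in DESeq2 and 0.397 in edgeR, with 3 of the 7 vitrified samples above every other sample. The third, ENSECAG00000039132, was highest in VMAT replicate 1 (1133), lay at 17.5 in VMAT replicate 2 and ran from 14.02 to 76.7 in FR samples. Its adjusted p was 0.0291 in DESeq2 and 0.567 in edgeR. SIAH2 and ENSECAG00000039132 were chosen for naming after their values were seen.

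By function, the oocyte and maternal factors divided evenly, with 6 of 12 genes above 0, a median log2 fold change of -0.10 and 0 genes passing the test. For these functional lists, counts and medians are descriptions, and they are read against the median of 0.03 of the 1110 genes. With equal totals, which put that median at -0.07, the 19 list medians lay between -0.35 and 0.14, and those of oxidative phosphorylation (-0.05), cold and osmotic stress (-0.06), mRNA storage and decay (-0.0021) and apoptosis (-0.0067) turned negative. DPPA3, which protects the maternal genome from demethylation, was the most abundant of the list and ran from 4501 to 16505 with a median of 6971 in vitrified samples and was at 6878, 9314, 7163, 7143 and 6463 in FR samples. Its log2 fold change was 0.05 (standard error 0.33). EIF4E1B, the oocyte form of the cap-binding protein, had the smallest p of this list and of the translation factors, at 49.8 to 1197 in vitrified and 795 to 1590 in FR samples (log2 fold change -1.02, standard error 0.83, adjusted p = 0.943 in limma). Among 10 translation factors, 5 were above and 5 below 0, and EIF5B, which joins the ribosomal subunits, had a value of 0.34 (standard error 0.29).

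Of 11 genes of M phase and the metaphase II arrest, 3 were above and 8 below 0, with a median of -0.19. AURKA, the kinase of spindle poles, ranked among the 5 most abundant of the 1110 genes, at 9666 to 41394 in vitrified and 27587, 48388, 14904, 23288 and 28956 in FR samples. The log2 fold change of AURKA was -0.12 (standard error 0.26), and its interval excluded a change of 1 in either direction (0.52 to either side). CDC25C, the phosphatase that activates CDK1, had the smallest p of this list, at 45.8 to 1689 in vitrified and 493.2 to 1823 in FR samples (log2 fold change -1.70, standard error 0.98, adjusted p = 0.943 in limma).

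The spindle, kinetochore and microtubule list was the longest, with 36 genes, of which 17 were above and 19 below 0 (median -0.04, range -2.26 to 1.12). HAUS1, a subunit of the augmin complex that branches spindle microtubules, gave the lowest value. HAUS1 counts were 1091, 864, 10.8 and 223 in VIM, 12.4, 380 and 1344 in VMAT, and 3159, 1313, 761, 165 and 1883 in FR samples, so low samples occurred in both vitrified groups and the arms overlapped (standard error 1.15, adjusted p = 0.943 in limma). KIF20B, a kinesin of cytokinesis, was the most abundant, with a value of -0.53 (standard error 0.46). The 16 actin genes had a median of 0.16, with 10 above 0. DIAPH3, a formin that builds actin filaments, was the most abundant of them and was at 2424 to 11308 in vitrified and 1715 to 4773 in FR samples (log2 fold change 0.68, standard error 0.44, adjusted p = 0.943 in limma).

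Calcium and cation transport gave 5 genes above and 8 below 0, with a median of -0.25. CALM2, which encodes the calcium sensor calmodulin, was abundant, at 8381 to 29574 in vitrified and 49590, 11058, 22894, 20109 and 17010 in FR samples (log2 fold change -0.30, standard error 0.29). PPP3R1, the regulatory subunit of the calcium-dependent phosphatase calcineurin, had the smallest p. Its 4 VIM values were 126, 1377, 78.3 and 174, whereas VMAT was at 2748, 648 and 639 and FR at 602 to 1335, so that the VIM value against FR was -2.21 and the VMAT value 0.02. The difference between them had an adjusted p of 0.9998 in limma.

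For protein folding and turnover, the lists likewise straddled 0. The 20 chaperone genes had a median of 0.12 with 11 above 0, and HSP90AA1, the stress-inducible HSP90, was at 1502 to 6830 in vitrified and 2450 to 6046 in FR samples (log2 fold change -0.17, standard error 0.47). PSMA7, a subunit of the proteasome core, ran from 15130 to 57027 in vitrified and was at 30708, 18231, 36316, 24206 and 25536 in FR samples, with a log2 fold change of 0.30 (standard error 0.22). The 8 proteasome genes had a median of -0.18, and the 16 genes of ubiquitin conjugation had one of -0.03, UBE2Q2 being the most abundant at 1547 to 8461 over all samples. Of 7 cytosolic ribosomal protein genes, 6 were above 0 (median 0.19). RPS9, the most abundant, had a log2 fold change of 0.21 (standard error 0.54), and RPS2, with the smallest p, had 1.37 (standard error 0.995), with 63.6, 32.0, 1374, 1406 and 392 in FR samples.

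Storage and decay of maternal mRNA were represented by 17 genes with a median of 0.10, of which UPF3B was the only one at an unadjusted p under 0.05. BTG4, the adaptor through which maternal mRNA is deadenylated, was the most abundant, at 3177 to 7671 in vitrified and 4324 to 8872 in FR samples (log2 fold change -0.23, standard error 0.37). The cold and osmotic stress list (7 genes, median 0.04) was led by HNRNPA1, an RNA-binding protein, with -0.15 (standard error 0.33), while UBAP2 ran from 18.7 to 1323 over all samples. Of 7 antioxidant genes, PRDX2, a peroxidase, had both the highest mean and the smallest p, at 1631 to 4397 with a median of 3067 in vitrified and 854, 409, 3350, 1643 and 1988 in FR samples (log2 fold change 1.11, standard error 0.57, adjusted p = 0.943 in limma), and the list's median was -0.20.

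The pooled medians of the remaining lists lay between -0.25 and 0.23. Their stage medians (VIM vs. FR, then VMAT vs. FR) had opposite signs for oxidative phosphorylation (-0.44, 0.71), MAPK (-0.28, 0.57) and mitochondrial import (0.14, -0.42). The signs were the same for chromatin (-0.05, -0.05), DNA replication (-0.27, -0.10) and apoptosis (0.06, 0.04). These stage medians were not tested. Of 35 rows of chromatin and histone genes, 14 were above and 21 below 0 (median -0.10), and 2 of the rows carry the name H3-3B. How alike the sequences of those 2 rows are was not analysed here. HMGB1, a chromatin protein, was at 6838 to 29385 in vitrified and 5933 to 21803 in FR samples, and KDM5A, a histone demethylase, had the smallest p with a log2 fold change of -1.44 (standard error 0.95). DNA replication and repair (17 genes) had a median of -0.25. In this list TOP1, a topoisomerase, reached 30487 in VMAT replicate 1 but 2083 in VMAT replicate 2 (log2 fold change -0.41, standard error 0.47), and RFC3, a subunit of the clamp loader, had a log2 fold change of 1.083 (standard error 0.72). Mitochondrial import and dynamics (6 genes, median -0.17) held RHOT1 at -0.84 (standard error 0.82) and TRAK1 at 1.46 (standard error 1.21), both of which move mitochondria along microtubules. Oxidative phosphorylation had 2 genes (COX6A1, 0.42, standard error 1.06), the MAPK list 3 (YWHAB, 0.40, standard error 0.53) and apoptosis 4, of which PDCD4, a translation inhibitor, had the highest mean (0.32, standard error 0.45). Over the 19 lists, 0 genes passed the test in either direction, and 5 genes reached an unadjusted p under 0.05 in limma. With a positive value these were RHOA (1 of 16 actin genes), CUL1 (1 of 16 of ubiquitin conjugation), PTGES3 (1 of 20 chaperones) and UPF3B (1 of 17 of mRNA storage and decay). BNIP3L (1 of 4 apoptosis genes) had a negative value. Whatever their list, 2.25% of the 1110 genes were under 0.05, against a background of 3.63% of all genes tested. Whether any list held more such genes than others was not tested.

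**Figure D4:**
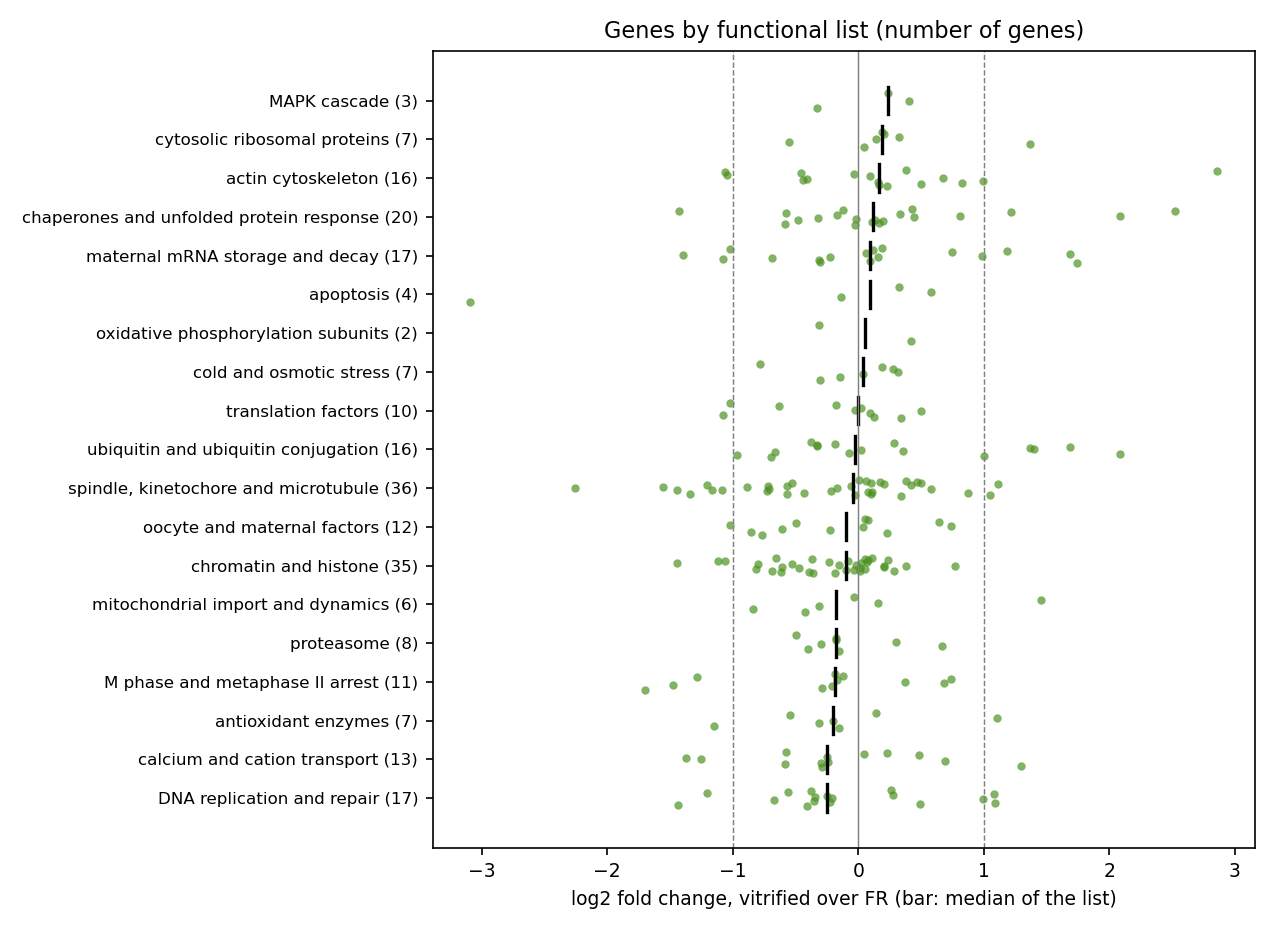
Log2 fold change of vitrified over FR samples for the genes of each functional list (points) with the list's median (black bar), ordered by median, and the number of genes in brackets. All 19 medians lie between -0.25 and 0.23, inside the dashed lines at -1 and 1, and single genes lie on both sides of 0 in every list.

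The spread within an arm was wide even for these genes, whose lowest values rest on few reads (as few as 4 in VMAT replicate 1). Over the 5 FR samples the highest value was at least 10 times the lowest for 333 of the 1110 genes (30.0%), and over the 7 vitrified samples it was so for 604 (54.4%). RPS2 is an example from the FR samples, with 32.0 in replicate 2 and 1406 in replicate 4. The median SD of log2 values was 1.25 in vitrified and 0.926 in FR samples for the 1110 genes, and 2.54 and 2.58 for all genes tested. The SD was larger in the vitrified arm for 67.7% of the 1110 genes and 54.0% of all genes tested, 60.7% of the 1110 with equal totals. Without VMAT replicates 1 and 2, the median SD of the vitrified arm was 1.001. The arms differ in size and the vitrified arm holds 2 stages, and this difference was not tested.

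The spread was smaller at higher levels. In the 278 genes with the lowest means the median SD was 1.76 in vitrified and 1.38 in FR samples, and in the 278 with the highest means it was 0.912 and 0.615. The most even genes over all 12 samples were SNRPB2, a spliceosomal protein (4432 to 7915, SD 0.264 on the log2 scale), PCBP1, an RNA-binding protein (1057 to 2244, SD 0.344), SMARCA5, the ATPase of ISWI chromatin remodellers (4719 to 10581, SD 0.359), and HPF1, the partner of PARP1 in ADP-ribosylation (9586 to 27617, SD 0.399). SMARCA5 had a log2 fold change of -0.36 (standard error 0.32), HPF1 of 0.14 (standard error 0.24) and PCBP1 of 0.26 (standard error 0.58). The most abundant gene was PARP12, an ADP-ribosyltransferase, at 29533 to 115589 with a median of 83906 in vitrified and 89513, 55219, 56844, 44386 and 51157 in FR samples (log2 fold change 0.32, standard error 0.20, adjusted p = 0.943 in limma). ENSECAG00000008731 followed with -0.16 (standard error 0.20), and CAST, the inhibitor of calpains, had 0.23 (standard error 0.24).

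**Figure D5:**
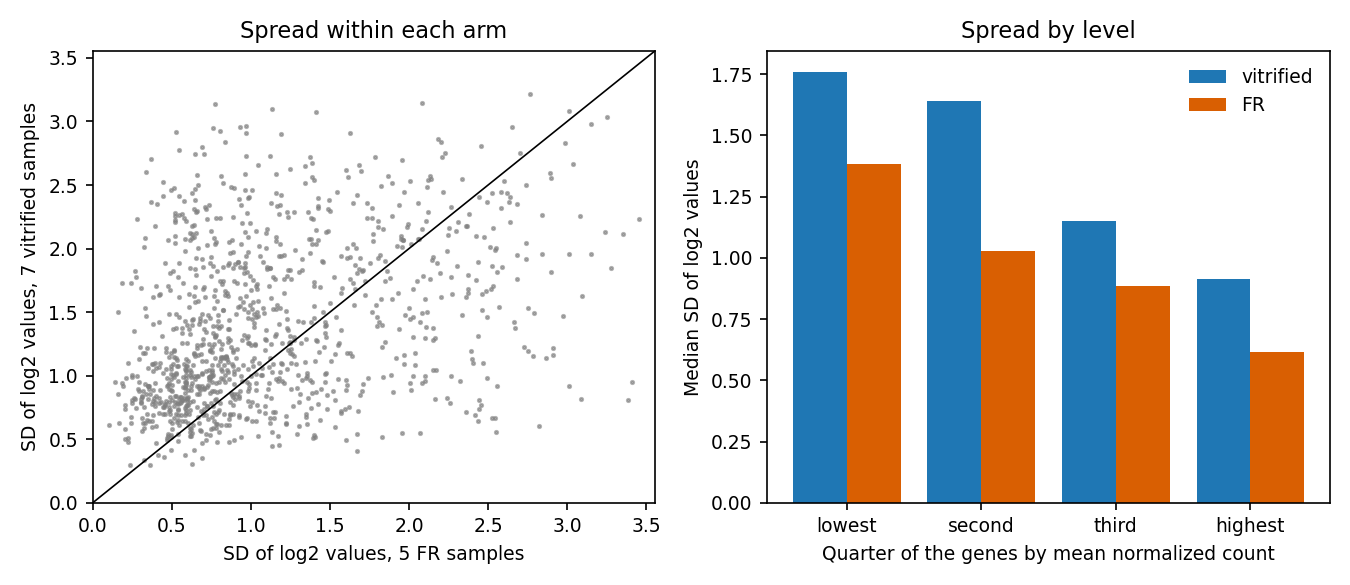
SD of log2 values of each of the 1110 genes in the 7 vitrified against the 5 FR samples with the line of equality (left), and the median SD of each arm in 4 groups of genes ordered by mean normalized count (right). Points lie above the line for 67.7% of the genes, and the median SD falls from 1.76 to 0.912 in vitrified and from 1.38 to 0.615 in FR samples.

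The stages were also fitted apart, in a single model with 3 groups. VIM vs. FR gave 34 of the 1110 genes at an unadjusted p under 0.05 (background 4.03% of all genes tested), 18 positive and 16 negative. VMAT vs. FR gave 31 (background 4.27%), 6 positive and 25 negative, and with equal totals 10 and 35. Over all genes tested the directions were split the other way in VMAT vs. FR, with 209 positive and 115 negative, and were 163 and 143 in VIM vs. FR. Both share the FR samples. VIM vs. VMAT, the test of the difference between the stages, gave 42 (background 4.45%), and its smallest adjusted p among the 1110 genes was 0.9998, with 0 genes called by limma in any of the 3 comparisons.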

How the data were processed

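Pools of in vitro matured horse oocytes were profiled with the QIAseq UPX 3′ transcriptome kit, in 4 VIM, 3 VMAT and 5 FR samples. Each group began with 5 pools, of which control of RNA amount and integrity left 4 of VIM, 4 of VMAT and 5 of FR. The authors trimmed the reads with Trim Galore, mapped them to EquCab3.0 with STAR and processed unique molecular identifiers with UMI-tools. They counted with RSEM, removed 1 VMAT sample for low RNA integrity, the lowest concentration and few reads, and divided the counts by DESeq2 size factors. Pools were thus lost for quality in the vitrified arm only, and the effect of this was not tested. The deposited values are this signal per gene and sample. All of them (100.0%, tolerance 0.001) were whole multiples of a step, so whole reads were recovered for edgeR, DESeq2 and statements on depth. The range of 1636620 to 12166950 reads per sample makes 3 reads worth a normalized count of 0.376 to 9.34, a floor that covers counting error only. Samples of an arm differed over the 1110 genes by a chi-square per degree of freedom of at least 381, so none was a library deposited again.

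Arms were compared with limma 3.58.1 under R 4.3.3 (eBayes, trend) after adding 1 to the normalized counts and taking log2, for 7594 genes above 0 in at least 5 samples, with Benjamini-Hochberg adjustment over all of them. Genes were called at an adjusted p of 0.05 or less where the log2 fold change was 1 or more in size. Fold changes on this scale understate the change of low genes. Intervals are 95% intervals from limma. Sample measures were tested with exact two-sided permutation tests over all 792 splits of 12 samples into 7 and 5. Named genes were, of the 1110, those past both thresholds, the 8 smallest p, the 3 largest changes and up to 4 widest gaps between arms in each direction, the highest mean and smallest p of each functional list, the 5 highest means and the 4 smallest SD. The genes, lists and rules were chosen with earlier results of these data known. Symbols came from the names paired with identifiers in the study's supplementary files (2569 genes), and a RefSeq gene table matched 0 identifiers. Gene positions and sequences were not analysed here.

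Alternatives were other pseudocounts, filters and scalings, eBayes without trend, stages weighted alike, genes detected as a covariate, a replicate block, edgeR 4.0.16, DESeq2 1.42.0, calls without a fold threshold, each stage alone, and leaving out each sample. Scaling to equal medians of the 1110 genes, the replicate block with equal totals, and leaving out VMAT replicates 1 and 2 together were added after seeing the data. The scripts were tested on simulated data. Python 3.11.15 was used for permutation tests and plots.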

Additional observations from a re-analysis of the deposited data

Results flagged for a closer look

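Within each arm, the highest and the lowest of the named genes and of 5 sample measures were set against the rest with Dixon's ratio at its 95% value, which chance passes in about 1 of 20 arms. Of 120 arms 10 passed, where a rate of 1 in 20 would give 6.0. Many of the named genes were chosen for their p, size, gap or SD in these same data. The rate need not hold for them, so 10 against 6.0 shows neither an excess nor its absence.

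Among the sample measures, VMAT replicate 2 stood apart from the other vitrified samples with 12166950 reads (others 1636620 to 3930366) and with 9504 genes detected (others 5470 to 6889).

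Among the genes, 8 arms had a lone sample. BNIP3L was at 433 in FR replicate 3, where the other FR samples were at 1362 to 1998. RFC3 was at 146 in FR replicate 5, where the others were at 878 to 1026. DPPA3 was at 9314 in FR replicate 2, above 6463 to 7163 in the others. HPF1 was at 12652 in the same sample, below 16541 to 18080. COX6A1 was low in a sample of each arm, at 28.2 in VIM replicate 1 and at 20.6 in FR replicate 2. EIF4E1B was at 49.8 in VMAT replicate 1, where the other vitrified samples were at 352 to 1197. ENSECAG00000018423, a gene without a symbol and with a log2 fold change of 2.58, was at 254 in VMAT replicate 2, below 1001 to 2535 in the other vitrified samples.

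By the test of VIM vs. VMAT, 0 of the named genes differed between the stages (limma, smallest adjusted p among the 1110 genes 0.9998).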

How the results depend on the processing

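The count of genes called stayed at 0 in every limma alternative and in edgeR, for the 1110 genes and for all genes tested, and DESeq2 gave 576 and 3 (the cause was not tested). The number of the 1110 genes at an unadjusted p under 0.05 (25) was 40 with quantile normalization (317 of all 7594 genes tested), 14 with edgeR (1317), 14 with DESeq2 (985), 49 in VIM against FR alone (278 of 7351) and 45 without VMAT replicates 1 and 2 (303 of 6837), against 276 for all genes in the test as reported. Leaving out each sample in turn gave 0 called genes and 0 called of the 1110 throughout, 22 to 40 of the 1110 genes and 267 to 324 of all genes tested at an unadjusted p under 0.05. The count for the 1110 genes was 38 without VMAT replicate 1 and 40 without VMAT replicate 2, whose directions were 20 positive and 18 negative in the former and 32 and 8 in the latter. Under the replicate block it was 21, with 0 genes called. The correlation of the deviations of same-numbered samples was at most 0.014 over 10 pairs, and pairs with other numbers reached 0.0578. The numbers thus gave no sign of pairing, but values this near 0 throughout cannot exclude a shared day or animal.

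Leaving out a sample gave differences of vitrified minus FR samples from -1034510 to 720549 in total reads and from -715 to -42.8 in genes detected. In the share of reads in the 10 highest genes they ran from -0.482 to 0.210 percentage points. In the share of reads on the 1110 genes they ran from -0.699 to 0.898 percentage points, and in the distance between arms from -0.00105 to 0.00381. None of these differences passed its exact permutation test. All 323 recomputed medians of functional lists moved by less than the SD of the list's median between samples of an arm, which is a wide measure. Leaving out a sample still turned the sign of some medians, as for MAPK (-0.76 to 0.47) and oxidative phosphorylation (-0.63 to 0.40). Other medians kept their sign, as for M phase and the metaphase II arrest (-0.35 to -0.11).

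Of the 51 named genes whose fold change was recomputed, 12 changed sign under some alternative, and 0 of them passed the test in limma. The other 4, HMGB1, SNRPB2, UBE2Q2 and UBAP2, are given by level only and are not in this count, and HMGB1 and SNRPB2 also turned with equal totals (-0.08 and -0.07) and UBE2Q2 in VIM vs. FR (0.0068). The log2 fold change of DPPA3 became -0.0441 with equal totals, -0.0369 with equal medians, -0.0753 with quantile normalization, -0.0464 with the replicate block and equal totals, -0.0109 with edgeR and -0.11 without VMAT replicates 1 and 2. The log2 fold change of COX6A1 became -0.14 with quantile normalization, -0.14 without VMAT replicates 1 and 2, and -0.20 in VIM against FR alone. In VMAT against FR alone PPP3R1 became 0.0238, PSMA7 -0.15, CAST -0.0422 and HPF1 -0.14, and TOP1 became 0.16 in DESeq2. Leaving out a sample gave -0.132 to 0.180 for DPPA3, -0.334 to 0.099 for AURKA, -0.534 to 0.0072 for CALM2, -0.646 to 1.12 for COX6A1, -0.0612 to 0.415 for RPS9, -0.343 to 0.0209 for HSP90AA1 and -0.306 to 0.0626 for HNRNPA1.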
